A study of Mus musculus with 6 samples.

Results

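A set of 36 genes that carry out DNA replication and mitosis was followed in basal epithelial cells of the mouse prostate, and proximal ducts were compared with distal ducts. Of the 25502 genes to which deposited transcripts could be assigned, 17 members act in S phase and 19 act in mitosis. The members were listed by name, with no filter on level, and the question was whether proximal basal cells carry less of the transcripts that mark cycling cells. All 6 libraries came from prostates of C57BL/6 mice aged 8 to 12 weeks, with no treatment or genetic change named in the labels. The 3 distal libraries are labelled as prostate basal cells of the distal ducts, and the 3 proximal libraries as prostate basal cells of the proximal ducts. Cells were dissociated, stained with antibodies and sorted, and total RNA was amplified with random and oligo(dT) primers before sequencing on an Illumina HiSeq. The antibodies and gates, and the animals behind each library, are not given in the sources used here. The p-values therefore reflect only how far these libraries vary, and that variation may be technical.

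Cells that leave quiescence pass from G1 into S phase when cyclin-dependent kinases inactivate the retinoblastoma family of pocket proteins and release E2F transcription factors, which turn on genes for licensing origins, building nucleotides and copying DNA. A later wave, driven by the MuvB complex with B-MYB and FOXM1, turns on genes for the spindle, the mitotic kinases and the destruction of cyclins. Quiescent cells keep both waves low through pocket proteins that occupy the same promoters. The proximal ducts of the prostate, nearest the urethra, have been described as a home of slow-cycling cells. In bulk RNA, fewer cycling cells and less of a transcript per cell cannot be told apart.

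Levels are given in FPKM, the fragments of a transcript per kilobase, scaled to the size of the library and summed over the transcripts of a gene. The widths of the deposited intervals correspond to 20900000 to 26700000 fragments in the distal and 21200000 to 25900000 in the proximal libraries. All 10 basal markers were above 0 in every library, 2 of them, Lama3 and Lamb3, were higher in proximal cells by the test, and their summed level was 7625 to 9305 FPKM in the distal and 8824 to 9051 FPKM in proximal libraries. A negative estimate was found for 3 of the 10 basal markers, Trp63, Krt14 and Krt17, and none of these passed. Their log2 fold changes, proximal minus distal, were -0.70, -0.29 and -0.38. Trp63 had a distal mean of 58.5 FPKM and a proximal mean of 34.2 FPKM, and its groups overlapped. For comparison, 2.23% of all genes tested were higher in proximal cells by the test, 0.737% were lower, and 18.9% had an unadjusted p under 0.05 (limma). Markers of other cells were also present. The 11 luminal markers, of which Krt19, Cldn3 and Tspan8 were higher in proximal cells by the test, summed to 2604 to 3494 FPKM in the distal and 3692 to 3936 FPKM in proximal libraries. The 7 proximal luminal markers, of which 5 were higher in proximal cells by the test, summed to 762 to 837 and 1464 to 1755 FPKM. The 8 endothelial markers summed to 2.53 to 12.5 and 19.3 to 28.2 FPKM, and all 8 had a positive estimate, 7 at an unadjusted p under 0.05 and 0 past the adjusted threshold of limma. The 10 fibroblast and smooth muscle markers summed to 778 to 820 and 710 to 779 FPKM, most of it Dcn, at a mean of 769 and 679 FPKM. Of these 10, Vim, Pdgfrb and Col3a1 were higher in proximal cells by the test, 8 had a positive estimate, and the median log2 fold change was 0.46. The mean of Vim, for example, was 7.11 FPKM in distal cells and 24.7 FPKM in proximal cells. The 8 leukocyte markers summed to 15.7 to 24.6 and 13.2 to 27.2 FPKM, most of it Cd74, at a mean of 15.9 and 15.1 FPKM. The pan-leukocyte gene Ptprc was listed at 0 in at least 1 library. The part of these cells in the differences below was not tested.

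The promoters of the 2 waves differ in the letters they hold. RefSeq promoters (GRCm38.p6, 250 bases before to 50 bases after a gene's start) were on hand for 14 S-phase and 15 mitotic members. They were searched on both strands for the CHR element TTTGAA, the element that MuvB binds. The 2 other searches were for the CCAAT box CCAAT, which binds NF-Y, and for E2F sites, spelled TTTCGCGC, TTTGGCGC, TTTCCCGC or TTTGCCGC. A CHR was found in 10 of 15 mitotic members and in 1 of 14 S-phase members, Mcm2, against 20.2% of all 27025 genes, a gene being counted where any of its promoters held the letters. An E2F site was found in 7 of 14 S-phase members and in 1 of 15 mitotic members, Cdk1, against 2.6% of all genes. CCAAT was found in 9 of 14 S-phase and 13 of 15 mitotic members, against 41.1% of all genes. Matches of different motifs overlapped once in these promoters. A match is a description of the letters and not a measured binding site. The CHR windows below all lie upstream of the start and are printed 5′ to 3′ along the gene's strand. The CHR letters or their reverse complement are in capitals. Cdk1, Mki67 and Top2a each held another CHR match upstream of the start that is not printed, in Cdk1 at 9 bases from the start. These windows are shown because the mitotic genes are followed through the libraries below.
Cdk1 (chr10:69352961-69353000, minus strand): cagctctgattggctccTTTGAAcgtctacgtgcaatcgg
Mki67 (chr7:135716455-135716494, minus strand): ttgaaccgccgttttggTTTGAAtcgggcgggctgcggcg
Top2a (chr11:99024190-99024229, minus strand): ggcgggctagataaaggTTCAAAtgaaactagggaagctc
Kif11 (chr19:37376346-37376381, plus strand): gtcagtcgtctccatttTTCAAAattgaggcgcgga
The next windows have an E2F site in capitals and show a pair of helicase genes, Mcm6 and Mcm5, and the 1 mitotic member with such a site. Mcm6 also held E2F matches further upstream, which are not printed. The Mcm5 window also holds an E2F match on the other strand, which overlaps the capitals and is not marked.
Mcm6 (chr1:128359728-128359769, minus strand): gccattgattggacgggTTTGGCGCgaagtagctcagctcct
Mcm5 (chr8:75109339-75109380, plus strand): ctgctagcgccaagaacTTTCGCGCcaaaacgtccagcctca
Cdk1 (chr10:69353019-69353060, minus strand): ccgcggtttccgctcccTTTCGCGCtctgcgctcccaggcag
Rrm2, the 1 member that passed the test below, had a CCAAT box, in capitals, and none of the E2F spellings in its window.
Rrm2 (chr12:24708187-24708225, plus strand): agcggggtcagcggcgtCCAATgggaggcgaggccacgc

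Of the S-phase members, 15 of 17 were above 0 in both groups, and 1 of them, Rrm2, was lower in proximal cells. Of the 17, 16 were above 0 FPKM in at least 1 library and entered the test, 14 had a mean of at least 1 FPKM, and the median of the 17 mean levels was 3.83 FPKM. The test was limma on log2(FPKM + 1) over all 18725 genes above 0, two-sided, with a Benjamini-Hochberg adjusted p under 0.05. On that scale fold changes of weakly expressed genes are understated. By it 1 of the 16 was lower, 0 were higher and 15 did not pass, where 0.737% of all genes tested were lower and 2.23% were higher. At an unadjusted p under 0.05 there were 5 of 16 S-phase members, against 18.9% of all genes. The log2 fold change, proximal minus distal, was negative in 12, positive in 3 and -0.00 in Cdc6, with a median of -0.22. Over all genes the median was -0.00, and 52% of the genes were negative. The groups did not overlap, with proximal lower, for 4 S-phase members, Rrm2, Ccne1, Mcm3 and Mcm4, against 10.4% of all genes. For 0 members of either wave did the proximal libraries all lie higher, against 12.2% of all genes. Leaving out proximal replicate 3, the library in which 8 S-phase members were lowest, the median became -0.11.

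Rrm2 encodes the small subunit of ribonucleotide reductase, the enzyme that makes deoxyribonucleotides for DNA synthesis, and its protein is made in S phase and destroyed after it. The gene lies on chromosome 12 from 24708241 to 24714146 on the plus strand (mm10), and 1 deposited transcript of 2180 bases matched it. Its level was 58.1, 75.2 and 73.9 FPKM in distal replicates 1, 2 and 3, and 32.2, 42.2 and 37.6 FPKM in proximal replicates 1, 2 and 3. Every proximal library lay below every distal library, and the distal mean of 69.1 ± 9.5 FPKM was 1.85 times the proximal mean of 37.4 ± 5.03 FPKM (SD, n = 3). Its log2 change was -0.87 ± 0.14 (SE, adjusted p = 0.0346 by limma). This call rested on all 6 libraries but distal replicate 1. The adjusted p was 0.132 without distal replicate 2, 0.123 without distal replicate 3, and 0.0516, 0.0735 and 0.0973 without proximal replicates 1, 2 and 3 (limma). It was also lost under quantile normalization (limma, adjusted p = 0.061). In the 18 alternatives the log2 fold change stayed between -0.99 and -0.77, and 11 of them passed.

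The partner subunit and the other nucleotide gene of the list did not pass. Rrm1 encodes the large subunit of the same enzyme, which is present throughout the cycle. It was at 7.33, 7.84 and 8.86 FPKM in the distal and 7.59, 6.45 and 6.18 FPKM in proximal libraries, and its log2 change was estimated at -0.22 ± 0.12 (SE, adjusted p = 0.386 by limma). Proximal replicate 1 lay inside the distal range. The level of Rrm2 per unit of Rrm1 was 7.93, 9.59 and 8.34 in distal and 4.24, 6.55 and 6.09 in proximal libraries. Its means were 8.62 ± 0.865 and 5.63 ± 1.22 (SD, n = 3). This ratio was chosen after the values were seen and is a description. An exact two-sided permutation test of it gave p = 0.1, the lowest that 3 against 3 libraries can give, so that test decides nothing. Tyms encodes thymidylate synthase, which makes the thymidine nucleotide for DNA. Its level was 5.07, 3.29 and 4.69 FPKM in the distal and 4.67, 3.8 and 4.65 FPKM in proximal libraries, and the groups overlapped (log2 fold change 0.02 ± 0.17, SE, limma, adjusted p = 0.973). Most of this level came from a deposited transcript of 615 bases.

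Mcm2 to Mcm7 encode the 6 subunits of the helicase that is loaded on origins in G1 and unwinds DNA in S phase, 1 copy of each to a ring. None of them passed the test. Mcm6 had the highest level of the 6 in every library, at 17.1, 19.7 and 21.9 FPKM in the distal and 21.8, 23.9 and 23.7 FPKM in proximal libraries. The other 5 subunits lay between 2.1 and 8.84 FPKM in the distal and between 1.71 and 6.69 FPKM in proximal libraries. The log2 change of Mcm6 was 0.24 ± 0.11 (SE, adjusted p = 0.303 by limma), and proximal replicate 1 lay within the distal range. Mcm4 was at 7.4, 8.68 and 8.84 FPKM in the distal and 6.69, 6.16 and 5.84 FPKM in proximal libraries, and its log2 change was -0.36 ± 0.11 (SE, adjusted p = 0.149 by limma). The groups of Mcm4 did not overlap, and its estimate had the opposite sign to that of Mcm6. The ratio of Mcm6 to Mcm4 was 2.31, 2.27 and 2.48 in distal and 3.25, 3.88 and 4.06 in proximal libraries. This ratio was chosen for the opposite signs of its genes and is a description. Its exact two-sided permutation test gave p = 0.1, the lowest that 3 against 3 libraries can give, so that test decides nothing. Mcm3 was at 5.88, 5.93 and 4.69 FPKM in the distal and 4.61, 4.48 and 4.23 FPKM in proximal libraries, which just did not overlap (log2 fold change -0.25 ± 0.13, SE, limma, adjusted p = 0.359). Mcm2, Mcm5 and Mcm7 had log2 fold changes of -0.02, -0.05 and -0.02. The signs of all 3 depended on the setting. Mcm2 and Mcm7 were at 0.01 under quantile normalization, Mcm5 was at 0.13 without proximal replicate 3, Mcm7 at 0.10 without distal replicate 1 and Mcm2 at 0.09 without both libraries numbered 2. In all 3 the proximal range covered or overlapped the distal range, with proximal replicate 1 the highest of the proximal libraries at 4.14, 3.61 and 4.52 FPKM.

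None of the genes that license origins or act at the fork passed. Cdt1, which loads the helicase together with Cdc6, was at 4.05, 3.62 and 3.76 FPKM in the distal and 4.13, 4.25 and 4 FPKM in proximal libraries (log2 fold change 0.09 ± 0.12, SE, limma, adjusted p = 0.713). Cdc6 itself was near the floor, at 0.02, 0.19 and 0.262 FPKM in the distal and 0.134, 0.167 and 0.158 FPKM in proximal libraries. The 2 licensing partners therefore stood at different levels per length in these cells, Cdt1 in the middle of the S-phase members and Cdc6 lowest of those above 0. Pcna, the sliding clamp of the DNA polymerases, was at 59.2, 39 and 35.9 FPKM in the distal and 52.7, 33.3 and 29.3 FPKM in proximal libraries. In both groups replicate 1 was the highest, and the spread within a group was wider than the difference between them (log2 fold change -0.22 ± 0.27, SE, limma, adjusted p = 0.702). Pcna also serves DNA repair. Uhrf1, which brings the maintenance methyltransferase to new DNA, was at 1.11, 1.8 and 1.08 FPKM in the distal and 1.26, 0.812 and 0.708 FPKM in proximal libraries (log2 fold change -0.27 ± 0.18, SE, limma, adjusted p = 0.482).

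Neither of the fitted regulators of S-phase entry passed. Ccne1 encodes cyclin E1, the partner of CDK2 at the start of S phase (chromosome 7, 38097984 to 38107534, minus strand, mm10). Its level was 1.09, 2.88 and 2.51 FPKM in the distal and 0.749, 0.511 and 0.38 FPKM in proximal libraries. Every proximal library was lower, and the distal mean of 2.16 ± 0.946 FPKM was 3.95 times the proximal mean of 0.547 ± 0.187 FPKM (SD, n = 3). Its log2 change of -0.99 ± 0.26 (SE) did not pass (limma, adjusted p = 0.104). Distal replicate 1 stood nearest the proximal libraries, and without it the adjusted p was 0.0224 (limma). Leaving out that library widens the difference, so the value is no check of Ccne1. Of 18 alternatives 2 passed, both without distal replicate 1, and the adjusted p ranged from 0.0196 to 0.538 (limma). E2f1, the activating E2F that is also its own target, was at 1.02, 0.795 and 1.31 FPKM in the distal and 0.806, 0.308 and 0.372 FPKM in proximal libraries. Here proximal replicate 1 lay just inside the distal range (log2 fold change -0.46 ± 0.16, SE, limma, adjusted p = 0.199).

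**Figure D1:**
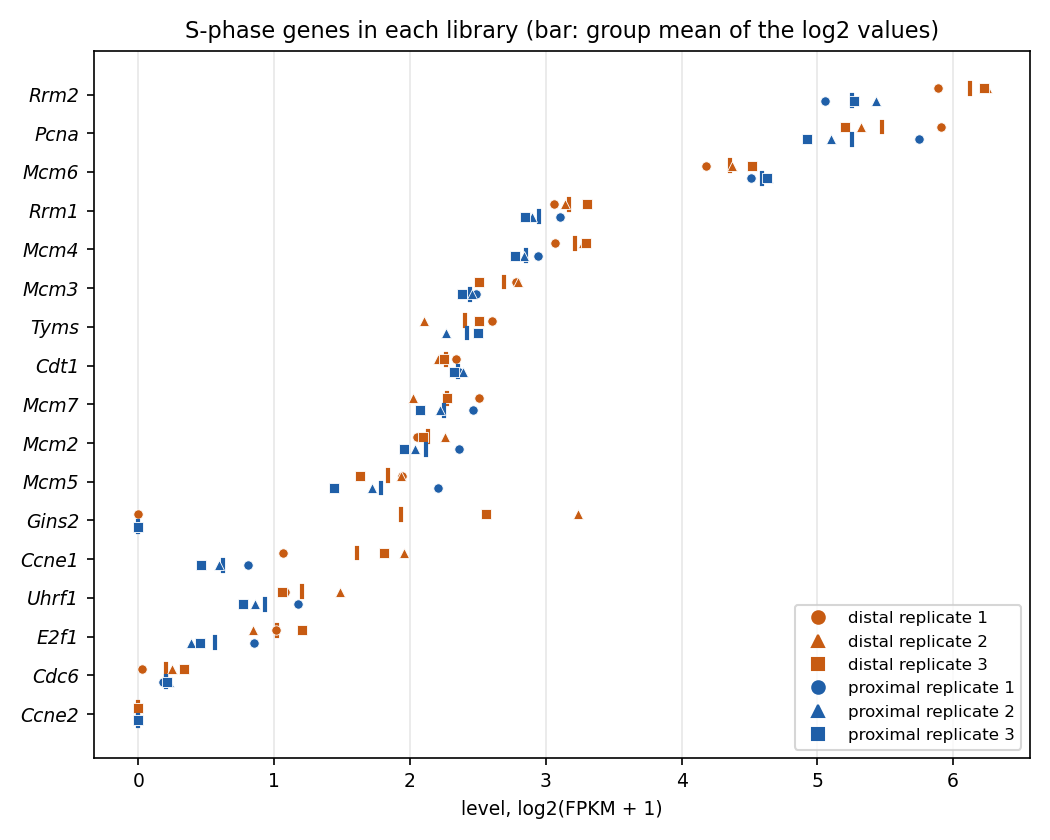
Level of each S-phase member on the log2(FPKM + 1) scale in the 6 libraries (orange, distal; blue, proximal; circles, triangles and squares, replicates 1, 2 and 3; bars, group means of the log2 values), ordered by mean level. Rrm2 and Pcna are at the top, the proximal points of Rrm2 and Ccne1 lie left of all their distal points, and Ccne2 is listed at 0 in every library.

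Some members share sequence with other genes, so their reads can be misplaced. Of the 50-base words of its longest coding transcript in GENCODE, Ccnb1 shared 42.1% with transcripts of other genes, chiefly Ccnb1-ps, Mcm7 shared 34.2%, chiefly with Gm5487, and Pcna shared 31.8%, all with Pcna-ps2. Gins2 shared 70.3%, the highest of the 36 members, all with the overlapping gene Gse1, and Kif20a shared 31.2%, all with Cdc23. Uhrf1, Ube2c, Ccne2 and Ccna2 shared 18.9%, 17.8%, 17.4% and 15.9%. The levels of these members may therefore be less certain. For Gins2 and Ube2c the GENCODE transcript had 3900 and 2191 bases, and the longest deposited transcript 1038 and 931 bases. Their shares therefore need not hold for the transcripts that were measured. Rrm2 shared 6.48%, and Ccne1, Cdk1, Aurka and Aurkb shared 0%.

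Several members were listed at exactly 0, and these are given by library. Ccne2, the other cyclin E, and the mitotic genes Plk1, Cdc20 and Kif20a were at 0 in all 6 libraries and entered no test. Gins2, a subunit of the replicative helicase complex, was at 0, 8.45 and 4.91 FPKM in distal replicates 1, 2 and 3 and listed at 0 in all 3 proximal libraries, and Ccna2, cyclin A2 of S phase and mitosis, was at 1.48 FPKM in distal replicate 2 and 0 in the other 5. The deposited upper bound of Gins2 in distal replicate 1 was 0.104 FPKM, beside 8.45 FPKM in distal replicate 2 with an interval of 7.21 to 9.69 FPKM. Gins2 entered the test only through the 2 distal libraries in which it was above 0, and did not pass (limma, adjusted p = 0.256). Without distal replicate 1 every distal value would be above 0 and every proximal value 0, so that fit is not a check of the gene. Of the 7 members whose transcripts share their span with a transcript of another gene or an unassigned one, 6 had a 0 in at least 1 library. Of the 29 without such a neighbour, 1 had a 0, Bub1. Over protein-coding genes that reached 1 FPKM in a library, 5.43% of 2910 overlapped genes and 0.504% of 7932 other genes had a 0. That set leaves out genes at 0 in every library, so Ccne2, Plk1, Cdc20 and Kif20a are outside it. Bub1, which stayed under 1 FPKM, is outside it too. These shares therefore cannot be set directly against the counts of members. Gins2 overlaps Gse1, Ccne2 overlaps Ints8, Ccna2 overlaps Exosc9, Cdc20 overlaps Elovl1 and Kif20a overlaps Brd8 and Cdc23. Plk1 overlaps an unassigned transcript that was itself at 0 FPKM in every library. The overlapping Exosc9 transcript, for example, was at 15.2 to 21.8 FPKM. A 0 from Cufflinks may stand for an estimate that failed, and whether these genes were silent was not tested. Gins2 and Ccna2 are among the members counted as negative. Without them 11 S-phase and 13 mitotic members were negative, and the medians were -0.22 and -0.19.

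The mitotic members were scarce in both groups, and none passed the test. Of the 19, 16 were above 0 FPKM in at least 1 library, 2 had a mean of at least 1 FPKM (Birc5 and Ube2c), and 0 exceeded 2 FPKM in any library. The median of the 19 mean levels was 0.252 FPKM, while 55.1% of all genes tested had a mean of at least 1 FPKM. By limma 0 were lower and 0 higher, and 3 of 16 had an unadjusted p under 0.05, Nusap1, Ccnb1 and Aurka, a share close to the 18.9% of all genes. The log2 fold change was negative in 14 and positive in 2, Aurkb and Kif11, at 0.02 and 0.00, and Kif11 turned to -0.00 under quantile normalization. Their median was -0.20, and it was -0.42 with a pseudocount of 0.1 in place of 1. The groups did not overlap, with proximal lower, for 3 of the 16, the same 3 genes, against 10.4% of all genes. Among the 15 above 0 in at least 3 libraries, distal replicate 2 was the highest library for 9, and proximal replicates 2 and 3 the lowest for 5 and 6. Without both libraries numbered 2 the median was -0.11.

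Mki67 encodes Ki-67, the coat of mitotic chromosomes that is used in tissue to count cycling cells. It was at 0.167, 0.513 and 0.233 FPKM in the distal and 0.101, 0.298 and 0.202 FPKM in proximal libraries, which is about 24 to 138 fragments over its 10075 bases. The groups overlapped, and in each the library numbered 2 was the highest (log2 fold change -0.11 ± 0.11, SE, limma, adjusted p = 0.634). Top2a, the topoisomerase that untangles sister chromatids, was at 0.649, 0.897 and 0.774 FPKM in the distal and 0.676, 0.68 and 0.32 FPKM in proximal libraries. Proximal replicate 3 stood below the other 5 (log2 fold change -0.19 ± 0.12, SE, limma, adjusted p = 0.469).

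The mitotic kinase and its cyclins lay higher in part of the distal libraries. Cdk1, the kinase that drives entry into mitosis, was at 0.326, 1.18 and 0.933 FPKM in the distal and 0.348, 0.321 and 0.434 FPKM in proximal libraries. Distal replicate 1 lay within the proximal range and the other 2 distal libraries above it. Its log2 change was -0.38 ± 0.18 (SE, adjusted p = 0.34 by limma), and without distal replicate 1 the adjusted p was 0.0389 (limma). This was the 1 pass in the 17 alternatives that fitted Cdk1, where the adjusted p reached 0.821 (limma). Ccnb1, cyclin B1, was at 0.225, 0.561 and 0.317 FPKM in the distal and 0.14, 0.162 and 0.127 FPKM in proximal libraries, on about 7.01 to 34.7 fragments. Its groups did not overlap (log2 fold change -0.25 ± 0.09, SE, limma, adjusted p = 0.203). Ccnb2, cyclin B2, was at 0.648, 1.04 and 0.147 FPKM in the distal and 0.347, 0.223 and 0.131 FPKM in proximal libraries, and distal replicate 3 lay among the proximal values.

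Among the spindle genes, Nusap1 had the most negative estimate of the 16 fitted mitotic members. Nusap1, which bundles spindle microtubules around chromosomes (chromosome 2, 119618298 to 119651244, plus strand, mm10), was at 0.408, 0.565 and 0.871 FPKM in the distal and 0.182, 0.16 and 0.118 FPKM in proximal libraries. Every proximal library was lower, and the distal mean of 0.614 ± 0.236 FPKM was 4 times the proximal mean of 0.154 ± 0.0323 FPKM (SD, n = 3). Its log2 change was -0.48 ± 0.11 (SE, adjusted p = 0.075 by limma). The adjusted p was 0.0386 without distal replicate 1 (limma), the lowest of its distal libraries. This was the 1 pass in the 17 alternatives that fitted Nusap1, where the adjusted p reached 0.453 (limma). Oip5, which overlaps Nusap1, reached at most 0.233 FPKM. Aurka, the kinase that matures centrosomes, was at 0.59, 1.54 and 0.952 FPKM in the distal and 0.524, 0.428 and 0.476 FPKM in proximal libraries, without overlap (log2 fold change -0.43 ± 0.17, SE, limma, adjusted p = 0.249). Its activator Tpx2 was at 0.559, 0.817 and 0.536 FPKM in the distal and 0.572, 0.624 and 0.3 FPKM in proximal libraries, and these overlapped. Kif11, the motor that pushes spindle poles apart, had an estimate of 0.00 ± 0.04 (SE), at 0.132, 0.168 and 0.0853 FPKM in the distal and 0.184, 0.102 and 0.106 FPKM in proximal libraries.

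Genes of the kinetochore and of the chromosomal passenger complex overlapped between the groups, and the kinetochore genes were among the lowest above 0. Cenpe, a kinetochore motor, Cenpf, a kinetochore coiled-coil protein, and Bub1, a checkpoint kinase, had mean levels of 0.0912, 0.142 and 0.0442 FPKM over the 6 libraries. Cenpf was at 0.367 FPKM in distal replicate 2 and between 0.0754 and 0.136 FPKM in the other 5. Aurkb, the kinase of the passenger complex, was at 0.0988, 0.0966 and 0.247 FPKM in the distal and 0.22, 0.122 and 0.14 FPKM in proximal libraries, on about 4.04 to 11.1 fragments. Its partner Birc5, survivin, was at 0.845, 1.35 and 1.91 FPKM in the distal and 1.12, 0.588 and 1.48 FPKM in proximal libraries (log2 fold change -0.20 ± 0.24, SE, limma, adjusted p = 0.694). Ube2c, the ubiquitin-conjugating enzyme that works with the anaphase-promoting complex, was at 1.62, 1.5 and 0.808 FPKM in the distal and 0.745, 0.891 and 0.678 FPKM in proximal libraries. Only distal replicate 3 reached into the proximal range of Ube2c (log2 fold change -0.37 ± 0.17, SE, limma, adjusted p = 0.313).

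**Figure D2:**
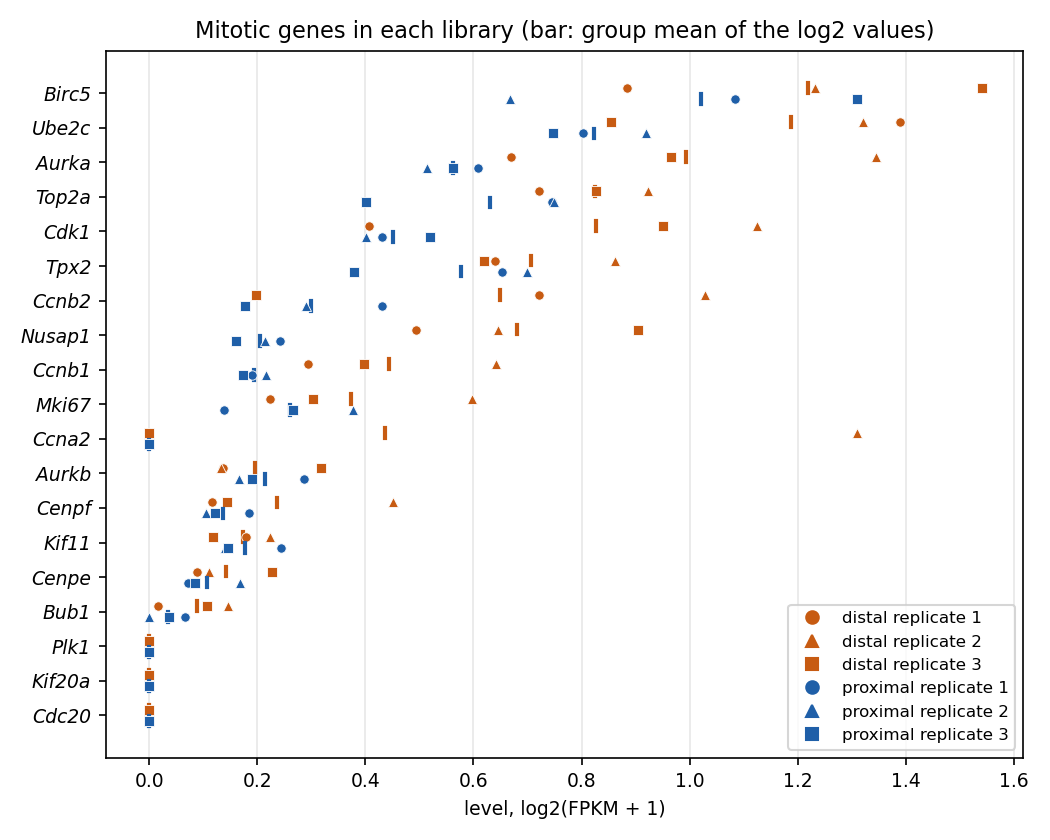
Level of each mitotic member on the log2(FPKM + 1) scale, drawn as for the S-phase members but on a narrower axis. No gene exceeds 2 FPKM in any library, the proximal points of Nusap1, Ccnb1 and Aurka lie left of all their distal points, and Plk1, Kif20a and Cdc20 are listed at 0 in every library.

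**Figure D3:**
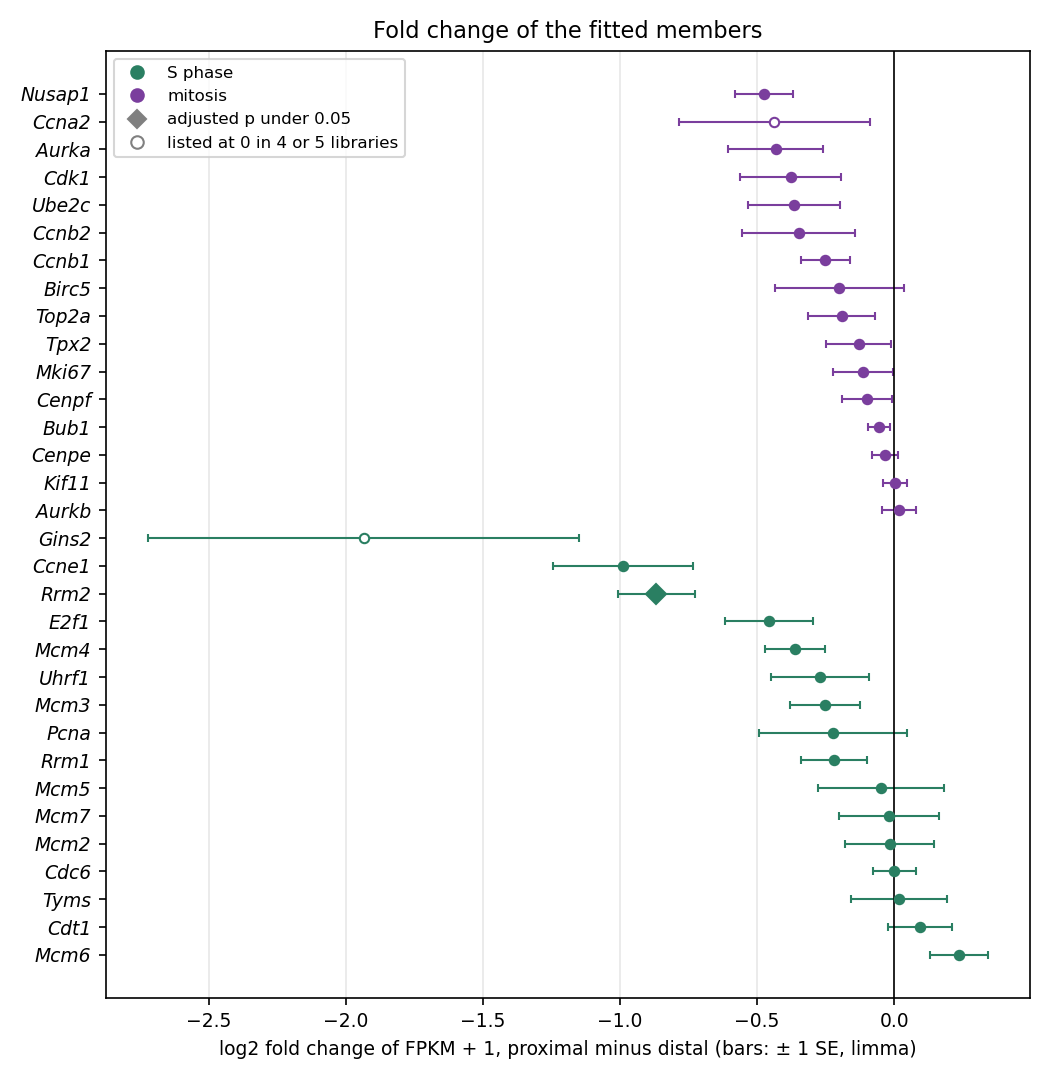
Log2 fold change of FPKM + 1, proximal minus distal, with ± 1 SE from limma, for the 32 members that entered the test (green, S phase; purple, mitosis; open points, listed at 0 in 4 or 5 libraries, whose fold changes depend on the pseudocount). Rrm2, the diamond at -0.87, is the 1 member that passed, and Mcm6 at 0.24 is the most positive.

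Other genes of the same pathways also had mostly negative estimates and no call. For comparison, 0.737% of all genes tested were lower, 2.23% were higher and 52% were negative. Of 42 fitted other replication genes, 0 were lower and 0 higher, 36 were negative, and their median log2 fold change was -0.20. Rpa1, a subunit of the single-strand binding complex RPA, was at 18.2, 24.6 and 25.2 FPKM in the distal and 15.6, 9.88 and 9.38 FPKM in proximal libraries (log2 fold change -0.93 ± 0.22, SE, limma, adjusted p = 0.0833). Rpa3, another RPA subunit, had a log2 fold change of -1.01 and an adjusted p of 0.102 (limma). Orc1, of the origin recognition complex, was at 1.55 ± 0.298 FPKM in the distal and 0.725 ± 0.222 FPKM in proximal libraries (SD, n = 3), and did not pass. Of 50 fitted other mitosis genes, 0 were lower and 0 higher, 41 were negative, and the median was -0.12. Among them, the condensin subunit Smc4 was at 9.4 ± 1.73 and 6.93 ± 0.701 FPKM, and the cytokinesis gene Ect2 at 0.499 ± 0.0844 and 0.267 ± 0.0382 FPKM, in the distal and proximal libraries (SD, n = 3). Cdc25c, a phosphatase that activates CDK1, had an adjusted p of 0.0628 (limma). The genes of FOXM1 and B-MYB, Foxm1 and Mybl2, are on the same list and had positive estimates. Foxm1 was at 0.594, 0.325 and 0.501 FPKM in the distal and 0.852, 0.686 and 0.613 FPKM in proximal libraries. Every proximal library of Foxm1 lay above every distal one, as for 12.2% of all genes (log2 fold change 0.22, limma, adjusted p = 0.304). Mybl2 was near the floor, with a log2 fold change of 0.025 (limma, adjusted p = 0.842).

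Replication-dependent histone genes, which are transcribed as DNA is copied, had 1 lower and 0 higher of 60 fitted genes. Of the 60, 52 were negative, and the median was -0.14. Over all genes tested, 0.737% were lower, 2.23% were higher and 52% were negative. The lower gene, Hist1h4n, was at 7.09, 9.15 and 8.41 FPKM in the distal and 4.92, 4.84 and 4.23 FPKM in proximal libraries (log2 fold change -0.70 ± 0.13, SE, limma, adjusted p = 0.0456). The call was lost without any 1 of the libraries but distal replicate 1, with adjusted p from 0.0625 to 0.175 (limma). Histone genes have near-identical copies, so reads may be divided among them with error. Slbp, which binds the stem-loop of these messages, was at 48.3 ± 2.94 FPKM in the distal and 31.5 ± 8.36 FPKM in proximal libraries (SD, n = 3, limma, adjusted p = 0.125).

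Among upstream regulators of the cycle, 1 gene passed, where 2.23% of all genes tested were higher, 0.737% were lower and 52% were negative. Cdkn1c encodes the CDK inhibitor p57, which holds cells in G1. It was at 5.07, 4.28 and 4.63 FPKM in the distal and rose to 10.5, 8.74 and 8.05 FPKM in proximal libraries (log2 fold change 0.83 ± 0.13, SE, limma, adjusted p = 0.031). Leaving out any 1 of the libraries numbered 2 or 3 ended the call, with adjusted p from 0.0631 to 0.125 (limma). Its log2 change was 0.73 to 0.94 in the 18 alternatives. The endothelial sums were also higher in the proximal libraries, and their part in the level of Cdkn1c was not tested. The other 11 fitted G1 cyclins, CDKs and CDK inhibitors did not pass. Of all 12 fitted, 8 were negative and the median was -0.19. Cdkn2d, another inhibitor, had an estimate of the opposite sign to Cdkn1c, at 5.2 ± 1.27 FPKM in the distal and 1.89 ± 0.531 FPKM in proximal libraries (SD, n = 3, log2 fold change -1.10, limma, adjusted p = 0.0616). The inhibitor genes Cdkn1a and Cdkn1b also had negative estimates, and their groups overlapped. Cdkn1a had a distal mean of 302 FPKM and a proximal mean of 203 FPKM (log2 fold change -0.595, limma, adjusted p = 0.286). Cdkn1b had means of 2.86 and 1.97 FPKM (log2 fold change -0.348, limma, adjusted p = 0.471). Cdk2, the partner of cyclin E1, was at 8.1 ± 0.868 and 5.65 ± 0.449 FPKM, and Ccnd2, cyclin D2, at 44.4 ± 5.12 and 56.5 ± 2.96 FPKM, in the distal and proximal libraries (SD, n = 3), and neither passed. Of 17 pocket protein, E2F and MuvB genes, 0 passed in either direction, 9 were negative and the median was -0.03. E2f8, a repressive E2F, was at 2.85 ± 0.864 FPKM in the distal and 1.37 ± 0.169 FPKM in proximal libraries (SD, n = 3, limma, adjusted p = 0.13). Of 15 subunits and inhibitors of the anaphase-promoting complex, 0 passed, 9 were negative and the median was -0.06. Fzr1, the activator of that complex in G1, was at 6.21 ± 1.03 and 9.11 ± 1.05 FPKM in the distal and proximal libraries (SD, n = 3, limma, adjusted p = 0.142).

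The order of the libraries within each group was alike in several of these lists. The mean deviation of the S-phase members from their 6-library means, in log2 terms, was 0.01, 0.26 and 0.22 in distal and -0.03, -0.20 and -0.27 in proximal replicates 1, 2 and 3. Both libraries numbered 1 thus stood between the others. These means include Gins2, which was at 0 in 4 libraries. The medians of the same deviations were 0.03, 0.10 and 0.07 in distal and 0.05, -0.16 and -0.24 in proximal replicates 1, 2 and 3. By the medians proximal replicate 1 stood above distal replicate 1. For the mitotic members the mean deviations were -0.03, 0.29 and 0.06 in distal and -0.08, -0.11 and -0.14 in proximal libraries, so distal replicate 1 was closest to the proximal ones. Immediate early genes, which are switched on within minutes of stimulation or tissue dissociation, had deviations of -0.03, 0.61 and 0.61 in distal and -0.43, -0.40 and -0.36 in proximal libraries. All 16 of them had a negative estimate, with a median of -0.88, and 1, Ier2, was lower by the test (limma, adjusted p = 0.0316). Over all genes tested, 52% were negative and 0.737% were lower. Ier2 did not pass when any 1 of the libraries numbered 2 or 3 was left out, at an adjusted p from 0.101 to 0.121 (limma). The endothelial sums were 12.5, 2.53 and 5.03 FPKM in the distal and 28.2, 27.3 and 19.3 FPKM in proximal libraries, so distal replicate 1 was again nearest the proximal ones. The part of these in the levels of the members was not tested.

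**Figure D4:**
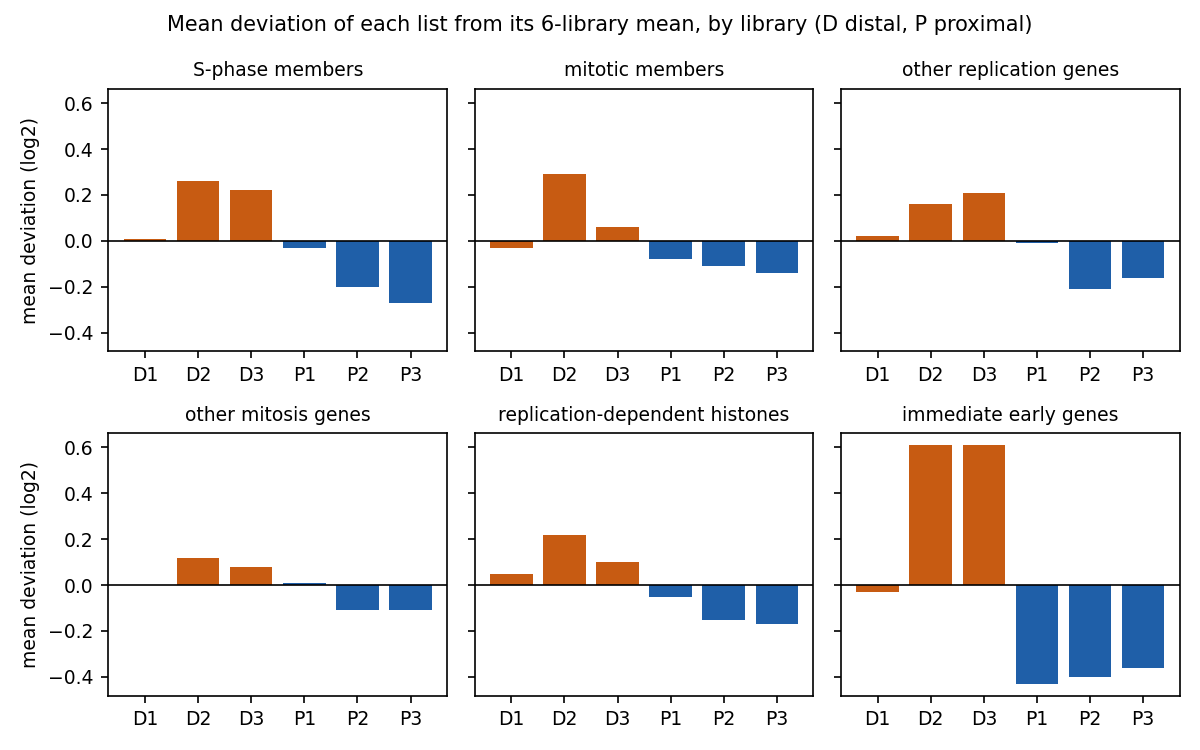
Mean deviation of each list from the mean of its genes over the 6 libraries, on the log2(FPKM + 1) scale, with 1 bar per library (D1 to D3, distal, orange; P1 to P3, proximal, blue). Distal replicates 2 and 3 stand above 0 in all 6 lists, and distal replicate 1 lies between -0.03 and 0.05. The bars of the S-phase members include Gins2, which was at 0 in 4 libraries.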

How the data were processed

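Total RNA of 6 sorted basal cell libraries was sequenced. Per the submitters' processing notes, bcl2fastq 1.8.3, TopHat and Cufflinks were used, with mm10 as the build. The deposited FPKM per transcript, with their intervals, were used as the authors gave them. The deposited coverage, a signal, was used only to check depth. Each of 63241 transcripts was matched by span and spliced length to GENCODE M21, or by an identical RefSeq span, and 53661 matched, with 94.2% of the FPKM. FPKM were summed per gene. Groups and replicate numbers came from the labels. Genes above 0 FPKM in at least 1 library (18725) were fitted with limma 3.58.1 in R 4.3.3 on log2(FPKM + 1), with a variance trend and no covariate. The procedure was tested on simulated data. Fragment numbers were derived from interval widths, taken as 2 counting SDs on each side, without effective-length correction, and cover counting error only. All 36 members are named, and of each other list up to 4 genes with the smallest p, plus markers and cycle regulators that bear on a result. Members and lists were chosen with earlier results of these data known. Starts in the files count from 0 and were converted. Alternatives changed the filter, pseudocount, scaling, variance trend, block, matching and libraries.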

Additional observations from a re-analysis of the deposited data

How the results depend on the processing

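In 18 alternatives, 2 of them chosen after seeing the data, no member passed as higher and no estimate of a member reversed while passing. The sign changed 34 times, in 9 members that passed no test. The number of members called lower, 1 with all libraries, was 0 under quantile normalization, ranged from 0 to 5 on leaving out 1 library, was 3 without both libraries numbered 1 and 0 without both numbered 2. Without distal replicate 1 the 5 were Rrm2, Ccne1, Gins2, Cdk1 and Nusap1, and Gins2, also among the 3, is fixed there by its zeros in all 3 proximal libraries. The median of the S-phase members ranged from -0.29 to -0.11 on leaving out 1 library, and that of the mitotic members was -0.42 with a pseudocount of 0.1. Over all genes, 138 were lower and 418 higher. Lower genes were 270 with a mean of at least 0.1 FPKM and 260 with a mean of at least 1 FPKM, 725 without both libraries numbered 1 and 0 without both numbered 2, where 5 were higher. Leaving out 1 library gave 13 to 389 lower and 57 to 443 higher genes. The cause was not tested. A fit with 2 libraries in a group assumes that the spread of the rest holds there.

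The replicate numbers are shared by label only. Over 10319 genes, the deviations of same-numbered libraries correlated at 0.38, 0.04 and 0.29 for numbers 1, 2 and 3, and distal replicate 2 correlated best with proximal replicate 3, at 0.13. With the replicate number as a block, 182 genes were lower and 470 higher, Rrm2 was the 1 member called, and Hist1h4n no longer passed (limma, adjusted p = 0.0649). Depth limits genes of both waves, such as Cdc6, read from about 1.9 to 28.4 fragments in a library, and Mki67, read from about 24 to 138.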
